A study of Mus musculus with 30 samples.

Results

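RLTR10 elements are mouse long terminal repeats (LTRs), the repeated ends of endogenous retroviruses of the ERVK class. The copies described here were every row of the deposited table of single repeats whose repeat name began with RLTR10 and did not end in -int, the mark of a retroviral internal part. There were 2362 such copies of 319797 repeat copies, and of 382367 transcription units in all. They fell into 9 subfamilies: RLTR10C with 1039 copies, RLTR10 with 525, RLTR10B2 with 334, RLTR10A with 115, RLTR10B with 108, RLTR10D with 78, RLTR10E with 62, RLTR10F with 57 and RLTR10D2 with 44.

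The assay was TT-seq, which captures nascent RNA: cells took up 1 mM 4-thiouridine for 10 minutes, and RNA that held the label was pulled out and sequenced. All groups were the same mouse embryonic stem (ES) cell line, called dTKO, whose genotype label reads Suv39h1fl/fl ; Suv39h2-/- ; Setdb1fl/fl, and every library, the 0 h ones included, has the treatment label + auxin + dTAG13. The groups were 0, 3, 12, 24 and 48 h after auxin (100 µg/ml) and dTAG13 (0.5 µM) went into LIF and serum medium on gelatin, so the 0 h baseline shares the genotype with the later groups. Auxin and dTAG13 trigger the breakdown of proteins that carry matching degron tags. The labels name no tags and do not say whether the line is 1 clone, and no other genotype is analysed here. Each time had 3 biological repeats, each sequenced in 2 runs that the deposited table holds as 1 column, which gives 15 libraries (n = 3 for every mean below). No label says that the repeats were separate cultures, so the spread between these libraries, on which p-values rest, may be technical. For subfamily sums and genes that spread was pooled almost wholly over units of similar level. A p-value there does not measure the spread of the 3 libraries of that unit alone.

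An LTR carries the promoter and the polyadenylation signal of its retrovirus, so that a complete provirus has one LTR before its internal part, where transcription starts, and one after it, where transcripts end. Recombination between both LTRs removes the internal part and leaves a solitary LTR, the commonest form in the genome. In mouse ES cells, KRAB zinc finger proteins recruit TRIM28 and the H3K9 methyltransferase SETDB1 to many ERVK elements, and SUV39H enzymes add H3K9me3 to young elements and to satellites. RepeatMasker pairs RLTR10C with the internal part MMERVK10C-int.

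Sequence was at hand for copies that overlap the start of an annotated gene, in RefSeq promoter windows on GRCm38.p6 (mm10). There were 23 such copies, and 14 of them had at least 200 bases in the window. Only RLTR10C_dup521 of the 23 had enough signal to be tested (83.5 scaled reads at 48 h, against 0.557 at 0 h, log2 change 5.81, limma adjusted p 1.37e-08). It met the minimum, a mean of 10 over all libraries, only through its later signal, so it had to differ from 0 h. Scaled reads are reads divided by the deposited size factor of the library. The 4 stretches below come from single copies of RLTR10C, RLTR10B2 and RLTR10D. They cover different parts of the LTR: that of RLTR10D starts at its first base, the others further in. Each is the part of the LTR inside the window, on the LTR's own strand, and capitals mark ATTTGCAT read on either strand (ATGCAAAT), the octamer that POU factors bind, and TATAAA and AATAAA, the letters of a TATA box and of a polyadenylation signal.
RLTR10C_dup521, chr5:26389034-26389277, + strand, bases 189 to 432 of its 432: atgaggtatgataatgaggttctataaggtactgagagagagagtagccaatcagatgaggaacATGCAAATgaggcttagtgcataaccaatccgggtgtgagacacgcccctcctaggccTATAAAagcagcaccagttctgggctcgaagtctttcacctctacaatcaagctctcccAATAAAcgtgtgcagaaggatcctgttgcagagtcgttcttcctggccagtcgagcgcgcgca
RLTR10C_dup667, chr6:71479100-71479399, - strand, bases 239 to 538 of its 563: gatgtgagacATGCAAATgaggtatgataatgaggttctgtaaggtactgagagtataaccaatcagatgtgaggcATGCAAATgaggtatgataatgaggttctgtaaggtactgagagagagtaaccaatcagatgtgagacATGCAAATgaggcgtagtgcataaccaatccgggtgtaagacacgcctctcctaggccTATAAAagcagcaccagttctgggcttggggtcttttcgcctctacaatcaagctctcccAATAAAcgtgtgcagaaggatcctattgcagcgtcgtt
RLTR10B2_dup142, chr3:104680579-104680878, - strand, bases 185 to 484 of its 488: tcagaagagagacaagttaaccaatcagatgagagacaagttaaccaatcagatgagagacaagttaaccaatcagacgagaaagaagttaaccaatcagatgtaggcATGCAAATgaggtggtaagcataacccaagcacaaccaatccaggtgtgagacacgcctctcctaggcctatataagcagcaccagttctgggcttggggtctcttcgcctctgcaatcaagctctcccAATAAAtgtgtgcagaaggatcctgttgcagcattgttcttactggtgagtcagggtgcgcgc
RLTR10D_dup286, chr10:119413194-119413488, - strand, bases 1 to 295 of its 321: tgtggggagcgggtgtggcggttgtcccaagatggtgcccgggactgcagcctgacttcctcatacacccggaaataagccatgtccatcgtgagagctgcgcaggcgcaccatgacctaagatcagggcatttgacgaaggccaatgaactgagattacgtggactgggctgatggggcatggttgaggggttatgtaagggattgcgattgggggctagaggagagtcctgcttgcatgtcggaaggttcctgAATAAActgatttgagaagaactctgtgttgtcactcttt

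The octamer stood in 4 of 4 RLTR10C windows of at least 200 bases, in 1 of 2 RLTR10B2 windows and in 0 of 8 windows of other subfamilies. Of 32817 RefSeq promoter windows of 300 bases, 1.74% held it on either strand. RLTR10C_dup667 held it 3 times, with starts 66 and 68 bases apart, and RLTR10C_dup1418 and RLTR10C_dup1442 each held it 2 times, with starts 70 and 76 bases apart. TATAAA stood in 2 of 4 RLTR10C windows (13.6% of all promoter windows) and AATAAA in 3 of 4 (19.6%). GGGCGG, the core letters of a GC box, stood in 0 of 4 (35.6%), and CCATNTT, the core letters of a YY1 site, also in 0 of 4 (16.1%), each read on both strands. CCAAT, searched after the sequences had been read, stood in 13 of 14 windows of all subfamilies (37.4%). These matches describe letters in windows chosen by the genes beside them and say nothing of binding. The windows cover different parts of the LTR, so whether a motif was found depends in part on the part covered.

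The lengths of RLTR10C copies fell mostly into 4 narrow classes, with modes of 365, 431, 497 and 563 bases, each 66 bases longer than the one before. The class from 415 to 435 bases held 650 copies and the class from 492 to 502 bases held 177, while the shortest held 36 and the longest 21. These classes were drawn after the lengths had been seen, so their signal is given with no test. Per kilobase of LTR it was, from the shortest class to the longest, 35.4 ± 2.36, 48.2 ± 2.48, 83.4 ± 4.68 and 97.1 ± 8.55 scaled reads at 48 h (SD). At 0 h the same classes had 0.617 ± 0.106, 1.41 ± 0.0609, 2.00 ± 0.307 and 0.188 ± 0.0809 per kilobase. Few copies carried the longest class: without the 2 highest copies of each class, which in the longest are RLTR10C_dup1729 and RLTR10C_dup826, the levels at 48 h were 11.4 ± 0.664, 42.8 ± 2.16, 65.1 ± 3.66 and 25.4 ± 4.07 in the same order. That setting was added after seeing the data. The longest class had the lowest level at 0 h. Copies of 1 class may share sequence, and so reads, which was not tested. A copy within 500 bp of an internal copy on the same strand made up 50.0%, 49.1%, 43.5% and 33.3% of the 4 classes, in the same order.

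**Figure D1:**
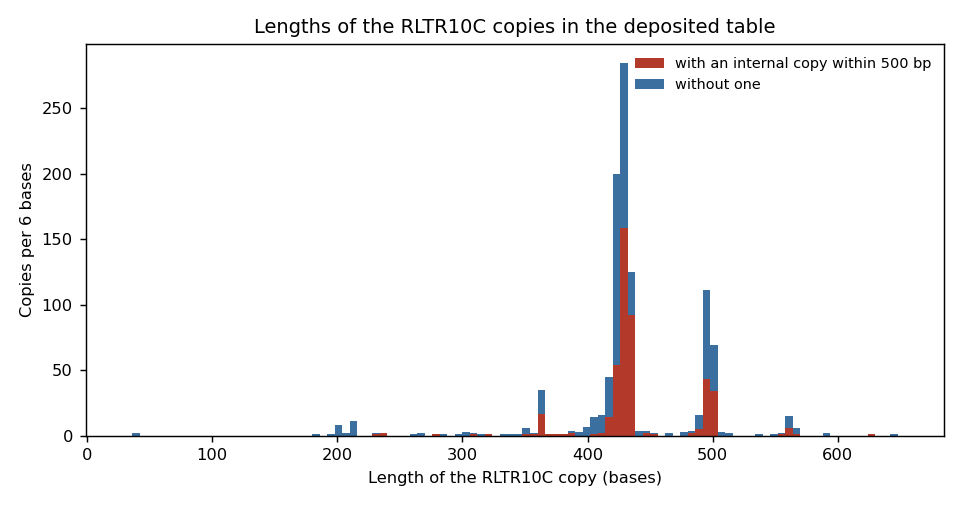
Lengths of the 1039 RLTR10C copies, in bins of 6 bases, stacked by whether an ERVK internal copy lies within 500 bp on the same strand (red, 448 copies) or not (blue, 591 copies). The lengths pile up at 365, 431, 497 and 563 bases.

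Depth ran from 37.1 to 42.3 M recovered reads per library over all units, of which repeat copies took 0.837 to 2.06 M and RLTR10 copies 2308 to 38768. The ES cell label was checked on 10 markers, none of which was at 0 in the 0 h group. Of all 15261 tested genes 58.4% were called down at 48 h and 7.65% up. Of the 10 markers 9 fell at 48 h, where their summed signal ran from 12082 to 12757 scaled reads, against 18534 to 20564 at 0 h, and Zfp42 rose. Of 4 tested markers of 2-cell-like cells all rose at 48 h (summed signal of the 8 listed 1326 to 1584 scaled reads, against 33.3 to 43.7 at 0 h), and of 7 tested fibroblast markers 6 rose and 1 fell (548 to 756 scaled reads, against 437 to 516). Of 5 tested primitive endoderm markers 1 rose (2049 to 2246 scaled reads over the 7 listed, against 1536 to 1745), and of 5 tested trophoblast markers 1 rose and 3 fell (524 to 654 scaled reads over the 7 listed, against 677 to 690). In bulk RNA, more cells of a kind and more RNA per cell cannot be told apart, and the part of these markers in the results below was not tested. The median log2 change over all genes was -0.24, 0.18, -0.08 and -0.37 at 3, 12, 24 and 48 h. The genes of the genotype label changed at 48 h by -0.21 (Setdb1), -0.08 (Suv39h1) and -0.44 (Suv39h2, a limma call). Of 30 tested genes of H3K9 methylation and ERV silencing, 22 fell and 0 rose at 48 h, beside the shares of all genes given above, with a median log2 change of -0.39.

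All RLTR10 copies together rose over the whole time course. Their summed signal was 1972 ± 48.5 scaled reads in 0 h libraries, 2915 ± 342 in 3 h libraries, 10612 ± 1576 in 12 h libraries, 19000 ± 3149 in 24 h libraries and 28333 ± 1580 in 48 h libraries (SD). As a share of the signal of all repeat copies it ran from 0.264% in a 0 h library to 1.88% in a 48 h library. RLTR10C carried most of the rise: it held 36.2%, 56.0%, 76.5%, 82.7% and 84.0% of RLTR10 signal at 0, 3, 12, 24 and 48 h. RLTR10, the second largest subfamily by copies, held 22.6% at 0 h and 3.29% at 48 h.

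RLTR10C rose at every time tested. Its libraries gave 680, 746 and 717.5 scaled reads in 0 h libraries, 1882, 1411 and 1611 in 3 h libraries, and 6678, 8863 and 8817 in 12 h libraries. They gave 14900, 18741 and 13548 at 24 h and 22591, 25142 and 23641 at 48 h. Every library lay above every library of the time before. The log2 changes against 0 h were 1.18 in 3 h libraries, 3.49 in 12 h libraries, 4.45 in 24 h libraries and 5.05 in 48 h libraries, each with an SE of 0.12 (limma adjusted p 6.5e-21 in 3 h libraries and lower later). Between neighbouring times it rose by 2.31 from 3 to 12 h, by 0.95 from 12 to 24 h and by 0.61 from 24 to 48 h, all past the threshold of limma adjusted p under 0.05, called a call below. At neighbouring times all 9 subfamilies rose between 3 and 12 h (77.8% of all 774 families tested), RLTR10C, RLTR10B2 and RLTR10E between 12 and 24 h (6.85%), and RLTR10C and RLTR10B2 between 24 and 48 h (4.01%). These shares and calls moved with the scaling: after rescaling over genes 26.5%, 21.1% and 42.8% of families were up over the same steps. The 3 to 12 h calls of RLTR10A, RLTR10D and RLTR10D2 were lost after rescaling (0.31, 0.17 and 0.30; limma adjusted p 0.0561, 0.150 and 0.204), in edgeR with TMM and in DESeq2, and those of RLTR10 and RLTR10B in DESeq2 (adjusted p 0.0514 and 0.106). After rescaling RLTR10 and RLTR10B also passed from 12 to 24 h (0.48 and 0.61), and all subfamilies but RLTR10D passed from 24 to 48 h. The RLTR10C mean at 12 h was 34.1% of its mean at 48 h. Over 19 alternative settings the 48 h change ran from 4.98 to 5.42.

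RLTR10B2, found beside MMERVK10C-int and IAPEY3-int, rose next most. It had 170, 187 and 175 scaled reads in 0 h libraries, 274, 209 and 244 in 3 h libraries, 592, 708 and 562 in 12 h libraries, 1046, 1250 and 896 in 24 h libraries and 1779, 2102 and 1742 in 48 h libraries. The log2 changes were 1.80, 2.57 and 3.39 at 12, 24 and 48 h (SE 0.13 each; limma adjusted p 1.38e-39 or lower). The 3 h change of 0.44 was a call (limma adjusted p 0.0417), and all 3 libraries at 3 h lay above all 3 at 0 h. That call was lost without 0 h replicate 1, 2 or 3 (limma adjusted p 0.139, 0.0761 and 0.119), without 3 h replicate 1 or 3 (0.189 and 0.0831), and over all alternatives its adjusted p ran from 5.56e-11 to 0.189.

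RLTR10E had 219.5, 212 and 183.5 scaled reads in 0 h libraries, 186, 188 and 223 in 3 h libraries, 372, 455 and 407 in 12 h libraries, 571, 609 and 509 in 24 h libraries and 689, 784 and 742 in 48 h libraries. The 3 h libraries overlapped those at 0 h, and all later libraries lay above them. Its log2 changes were -0.04 at 3 h (limma adjusted p 0.814; positive after rescaling over genes), then 1.00, 1.45 and 1.85 (SE 0.14 each; limma adjusted p 7.87e-12 or lower). From 12 to 24 h it rose by 0.45 (limma adjusted p 0.0163), a call lost without replicate 1 or 3 of 12 h (limma adjusted p 0.0551 and 0.0618) or replicate 1 of 24 h (0.066), over a range of 1.91e-13 to 0.066 among all alternatives. From 24 to 48 h the change of 0.39 did not pass (limma adjusted p 0.083), though it passed without 24 h replicate 2 (0.0134). Per kilobase of LTR, RLTR10E had the highest level of the 9 subfamilies at 0 h, 10.5 scaled reads. At 48 h it had 37.7 scaled reads per kilobase, second to RLTR10C with 52.9 at 48 h, against 1.59 for RLTR10C at 0 h.

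RLTR10F, RLTR10B and RLTR10D2 were called up at 12, 24 and 48 h and not at 3 h. At 48 h RLTR10F had 70.2 ± 8.74 scaled reads, against 16.1 ± 3.05 at 0 h (log2 change 2.07, SE 0.22). RLTR10B had 593 ± 10.2, against 183 ± 38.6, a change of 1.71 (SE 0.14). RLTR10D2 had 64.7 ± 12.0, against 22.4 ± 4.07, a change of 1.48 (SE 0.21). Without its highest copy, RLTR10D2 changed by 2.80 at 48 h and was also called up at 3 h (1.32, limma adjusted p 5.39e-05), as it was at 3 h after rescaling over genes (0.63, limma adjusted p 0.0237). RLTR10 had 932 ± 55.6 scaled reads at 48 h, against 445 ± 4.55 at 0 h (log2 change 1.06, SE 0.13; 0.78 without its highest copy and 1.76 over copies that overlap no gene), and RLTR10A had 102 ± 6.25, against 63.0 ± 9.90, a change of 0.70 (SE 0.18). Both were called up at 12, 24 and 48 h, with limma adjusted p of 6.00e-15 and 0.000426 at 48 h. The 12 h call of RLTR10A was lost in edgeR with TMM (adjusted p 0.0509) and in DESeq2 (0.104).

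RLTR10D differed in its course. It had 146 ± 6.92 scaled reads in 0 h libraries, 138 ± 8.76 in 3 h libraries, 209 ± 28.8 in 12 h libraries, 177 ± 16.4 in 24 h libraries and 167 ± 16.1 in 48 h libraries. The only call was at 12 h (log2 change 0.50, SE 0.15; limma adjusted p 0.00476), and it failed when 12 h replicate 2 was left out (limma adjusted p 0.0664), in edgeR with TMM (0.0949) and in DESeq2 (0.175), over a range of 0.00159 to 0.175 among all alternatives. At 48 h the change of 0.19 did not pass (limma adjusted p 0.395), but after rescaling over genes it was 0.55 and passed (1.73e-06). Of 774 repeat families tested, 1.55%, 32.9%, 24.4% and 23.4% were called up at 3, 12, 24 and 48 h. Among the 9 RLTR10 subfamilies the counts were 2, 9, 8 and 8. None was called down, where 1.94%, 0.388%, 1.03% and 4.91% of families were.

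**Figure D2:**
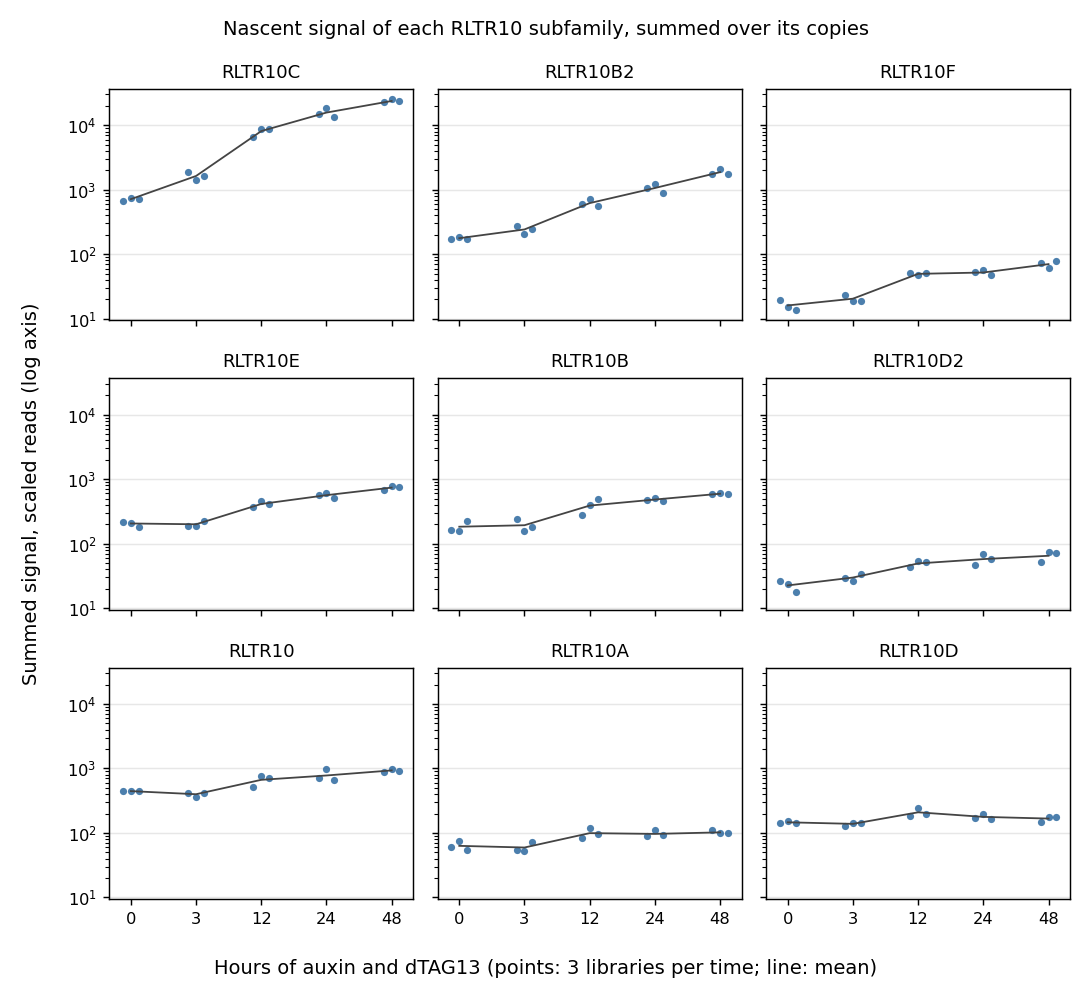
Summed signal of each RLTR10 subfamily in scaled reads (log axis) against hours of auxin and dTAG13, with 1 point per library and a line through the means. RLTR10C climbs to a mean of 23791 scaled reads at 48 h, while RLTR10D ends at 167, close to its 146 at 0 h.

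Whether the subfamilies differed from RLTR10C was tested on the ratio to RLTR10C within each library, which no scaling of whole libraries can alter. All 8 changed less than RLTR10C at every time. Of the 774 units in that fit, 99.2%, 99.6%, 99.6% and 99.5% were called down at 3, 12, 24 and 48 h. A smaller change than that of RLTR10C is thus not particular to these subfamilies. The median difference over all units was -5.05 at 48 h, below that of each of the 8. At 3 h the log2 differences ran from -1.35 (RLTR10, SE 0.10) to -0.74 (RLTR10B2, SE 0.10), and the highest limma adjusted p was 0.000103 (RLTR10D2). At 48 h they were -1.66 for RLTR10B2, -2.99 for RLTR10F, -3.21 for RLTR10E, -3.34 for RLTR10B, -3.57 for RLTR10D2, -3.99 for RLTR10, -4.36 for RLTR10A and -4.87 for RLTR10D, with SEs of 0.10 to 0.21 and limma adjusted p of 1.39e-44 or lower. For RLTR10D2 the 3 h difference turned to 0.16, and the 48 h difference to -2.28, when its highest copy was left out. Over copies that overlap no gene the 48 h difference of RLTR10 was -3.29. The gap of RLTR10B2 to RLTR10C was -0.74, -1.70, -1.88 and -1.66 at 3, 12, 24 and 48 h, whereas that of RLTR10D was -1.26, -2.99, -4.17 and -4.87. All of these comparisons share the 0 h libraries and RLTR10C itself.

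**Figure D3:**
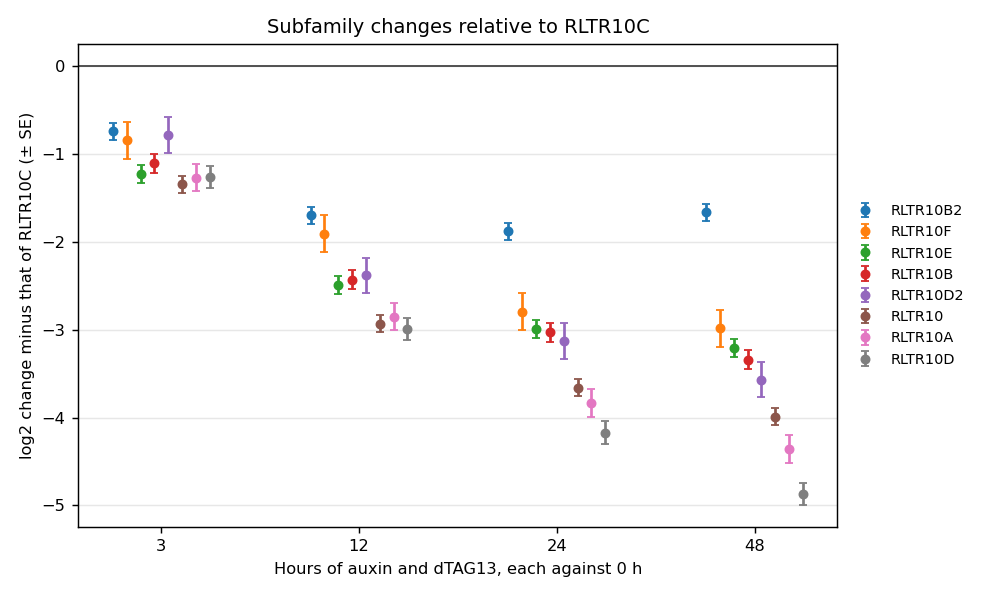
Log2 change of each subfamily against 0 h minus that of RLTR10C in the same libraries, with its standard error, at 3, 12, 24 and 48 h. All points lie below 0, and at 48 h they run from -1.66 for RLTR10B2 to -4.87 for RLTR10D.

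The internal parts beside the subfamilies differed only in part. MMERVK10C-int was the commonest beside RLTR10C, RLTR10B, RLTR10B2, RLTR10E and RLTR10F. An ERVK internal copy lay within 500 bp on the same strand of 996 of the 2362 copies. RLTR10C was beside MMERVK10C-int in 429 copies, RLTR10 beside RLTR10-int in 285, RLTR10D beside IAP-d-int in 41 and RLTR10B beside MMERVK10C-int in 52. RLTR10B2 was beside MMERVK10C-int in 50 copies and IAPEY3-int in 24, and RLTR10E beside MMERVK10C-int in 25. MMERVK10C-int had 9157 ± 460 scaled reads in 0 h libraries, 24816 ± 5153 in 3 h libraries, 135574 ± 18455 in 12 h libraries, 299874 ± 49679 in 24 h libraries and 494678 ± 25521 in 48 h libraries. Its log2 change at 48 h exceeded that of RLTR10C by 0.70 (SE 0.11; limma adjusted p 1.65e-10). RLTR10-int had 7005 ± 625 scaled reads at 48 h, against 792 ± 53.4 at 0 h, a change of 3.14 (SE 0.12) beside the 1.06 of RLTR10. IAP-d-int changed by 1.88 and IAPEY3-int by 2.73 at 48 h, and both were called up (SE 0.13 each).

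RLTR10C copies beside an internal copy rose more than those without one. The 448 copies beside one summed to 345, 377 and 365 scaled reads in 0 h libraries, 1360, 956 and 1094 in 3 h libraries and 5634, 7554 and 7475 in 12 h libraries. They summed to 13257, 16586 and 12080 at 24 h and 20245, 22340 and 21347 at 48 h. The 591 copies without one summed to 336, 369 and 352 in 0 h libraries, 522, 455 and 517 in 3 h libraries, 1044, 1308 and 1342 in 12 h libraries, 1643, 2155 and 1468 in 24 h libraries and 2345, 2802 and 2295 in 48 h libraries. The 2 sets thus began at close sums and parted from 3 h on, with no overlap at any later time. The log2 difference in change was 1.14 in 3 h libraries, 2.44 in 12 h libraries, 2.96 in 24 h libraries and 3.07 in 48 h libraries (SE 0.09 each; limma adjusted p 1.98e-39 or lower). Over the alternatives, which include distances of 50 and 2000 bp, the 48 h difference ran from 2.43 to 3.124. Copies without an internal neighbour still reached 2481 ± 279 scaled reads at 48 h, against 352 ± 16.8 at 0 h.

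Place relative to the internal copy also went with level. The 228 copies that lie after the internal copy on their strand had 136 ± 6.87 scaled reads per kilobase at 48 h, against 2.13 ± 0.0757 at 0 h. The 213 copies before it had 66.9 ± 3.68 per kilobase at 48 h, against 1.46 ± 0.134 at 0 h. Copies without one had 9.79 ± 1.10 at 48 h, against 1.39 ± 0.0663 at 0 h. A further 7 copies had an internal copy on both sides. Reads that start in the first LTR and run into the internal part, and transcripts that end in the last LTR, are not separated in these counts, and the difference between the places was not tested.

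**Figure D4:**
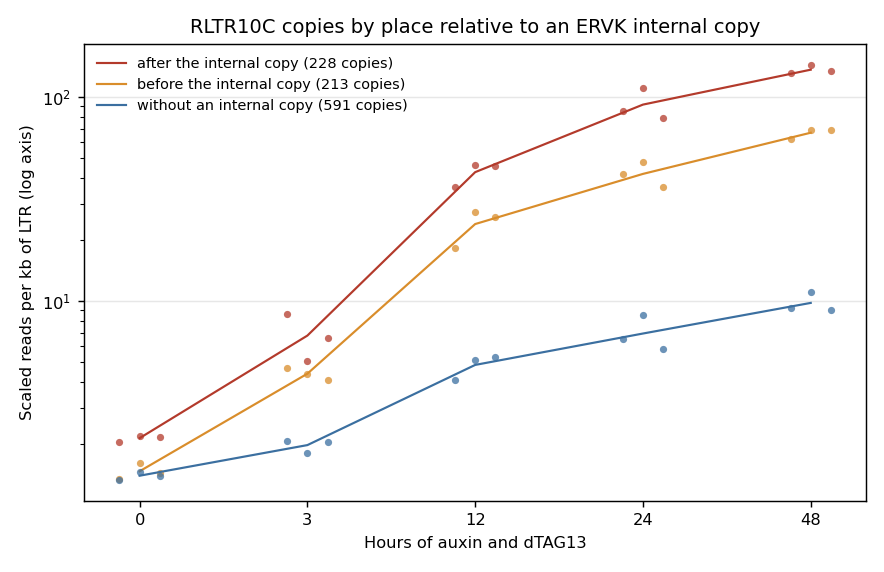
Scaled reads per kilobase of LTR (log axis) over time for RLTR10C copies after an internal copy (228), before one (213) and without one (591), with 1 point per library and a line through the means. At 48 h the means are 136, 66.9 and 9.79.

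In other subfamilies the split by internal neighbour, given as values with no test, was not uniform. RLTR10B2 copies beside an internal copy had 1115 ± 99.2 scaled reads at 48 h, against 37.5 ± 4.55 at 0 h, and those without one 760 ± 98.6, against 140 ± 7.26. RLTR10B copies beside one had 503 ± 21.6 at 48 h, against 117 ± 16.7 at 0 h, and those without one 89.8 ± 26.4, against 65.8 ± 44.8. RLTR10 copies beside an internal copy had 614 ± 37.9 at 48 h, against 353 ± 4.55 at 0 h, and those without one 318 ± 28.2, against 91.5 ± 6.42. A single copy, RLTR10_dup2909, held much of that 48 h signal, and without it the copies lacking an internal neighbour had 149 ± 23.2 at 48 h, against 90.1 ± 5.21 at 0 h. Without its own highest copy, RLTR10_dup1136, the set beside an internal copy had 551 ± 36.3 at 48 h, against 293 ± 15.4 at 0 h. An MMERVK10C-int copy lies 1309 bases from RLTR10_dup2909 on its strand, and had 3420 ± 154 scaled reads at 48 h, against 6.37 ± 2.02 at 0 h. RLTR10E copies beside an internal copy had 662 ± 36.2 at 48 h, against 192 ± 20.8 at 0 h, and those without one 76.6 ± 13.0, against 13.4 ± 1.79. RLTR10D copies beside one had 131 ± 7.73 at 48 h, against 127 ± 9.92 at 0 h, and those without one 36.05 ± 8.99, against 19.4 ± 3.22.

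Most RLTR10 copies gave few or no reads before treatment. Of the 2362 copies 17 had no read in any library and 1459 had none at 0 h. A mean of at least 10 scaled reads over all libraries, the minimum for a test of single copies, was met by 222 copies: 174 RLTR10C, 15 RLTR10E, 13 RLTR10B2, 11 RLTR10, 4 RLTR10B, 3 RLTR10D, 1 RLTR10D2, 1 RLTR10F and 0 RLTR10A. The mean at 0 h alone would have admitted 35, so most tested copies entered through their later signal, and a copy that entered this way had to differ. Copies on either edge of the minimum were RLTR10C_dup1323, left out with a mean of 9.99, and RLTR10C_dup580, kept with 10.0. Near-identical copies share reads, so the signal of a single copy may hold that of others; the placing of such reads is not stated by any source used here.

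At 48 h 201 of the 222 tested copies were called up, where 26% of all 13519 tested repeat copies were, and 2 were called down, where 12.3% were. At 24 h 200 were called up (25.4% of all copies) and 0 down (6.25%), at 12 h 177 up (20.8%) and 0 down (1.83%), and at 3 h 41 up (2.5%) and 0 down (0.266%). On recovered reads, edgeR called 201 up and 2 down at 48 h with TMM, and 199 up and 2 down with the deposited scaling. The median log2 change of the tested copies at 48 h was 5.26, beside -0.07 over all tested copies. These medians depend on the minimum, which most RLTR10 copies met only through their later signal. With the minimum at 0 h alone they were 0.12 for RLTR10 and -0.34 for all copies, and with no minimum 0.71 and 0. Of the 41 copies up at 3 h, 38 were RLTR10C, 2 RLTR10B2 and 1 RLTR10. The 3 h count was 23 with a pseudocount of 5 and 1 when only the 3 h and 0 h libraries were fitted. All 3 libraries at 48 h lay above all 3 at 0 h in 203 of the 222 (28.9% of all copies). Among the 35 copies admitted by their 0 h mean alone, 7, 10, 12 and 11 were up at 3, 12, 24 and 48 h (0.87%, 5.17%, 5.8% and 6.06% of all copies so admitted). Down calls among them were 0, 0, 0 and 2 (0.128%, 1.25%, 7.13% and 15.5%). With no minimum, 36, 219, 381 and 550 of 2345 were up (0.117%, 1.11%, 2.47% and 4.05% of all copies) and 0, 0, 0 and 4 down (0.0136%, 0.0459%, 0.233% and 0.575%). Of those 35, 11 were RLTR10C, of which 8 were up at 48 h, and 5 were RLTR10E, of which 0 were. The authors' deposited table gives calls too, by a threshold which the sources used do not state. Of 2362 RLTR10 copies it calls 43, 216, 325 and 422 up at 3, 12, 24 and 48 h (0.131%, 0.948%, 1.81% and 2.48% of all 319797 repeat copies). It calls 2 down at 48 h (0.33% of all repeat copies).

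Of the 174 tested RLTR10C copies, with a median log2 change of 5.42, 170 were called up at 48 h (26.0% of all tested repeat copies). The 4 others, named after their values were seen, were RLTR10C_dup1377, RLTR10C_dup1432, RLTR10C_dup355 and RLTR10C_dup596. Of the 11 RLTR10C copies admitted by their 0 h mean, 4 lay beside an internal copy, of which 4 were up at 48 h, and 7 had none, of which 4 were up. RLTR10E had 11 of 15 up (median change 3.03), RLTR10B2 11 of 13 (4.62), RLTR10 6 of 11 (2.25), RLTR10B 2 of 4 (1.08), RLTR10F 1 of 1, RLTR10D 0 of 3 and RLTR10D2 0 of 1. Most tested RLTR10 copies met the minimum only through later signal, so these counts and medians do not compare subfamilies. Among copies admitted by their 0 h mean the medians were 3.21 for RLTR10C (11 copies), 0.15 for RLTR10E (5) and 0.16 for RLTR10B2 (3). They were -0.84 for RLTR10 (6), 0.72 for RLTR10B (5), -0.06 for RLTR10D (3), 0.06 for RLTR10D2 (1) and -1.81 for RLTR10A (1). The RLTR10C signal was spread over many copies: at 48 h 35 copies held 50% of it and 202 held 90%, against 17 and 170 at 0 h. In RLTR10E 7 copies held 50% at 48 h, against 2 at 0 h. The lowest change, -2.90 in RLTR10B_dup35 (named after its value was seen), did not pass (limma adjusted p 0.199).

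**Figure D5:**
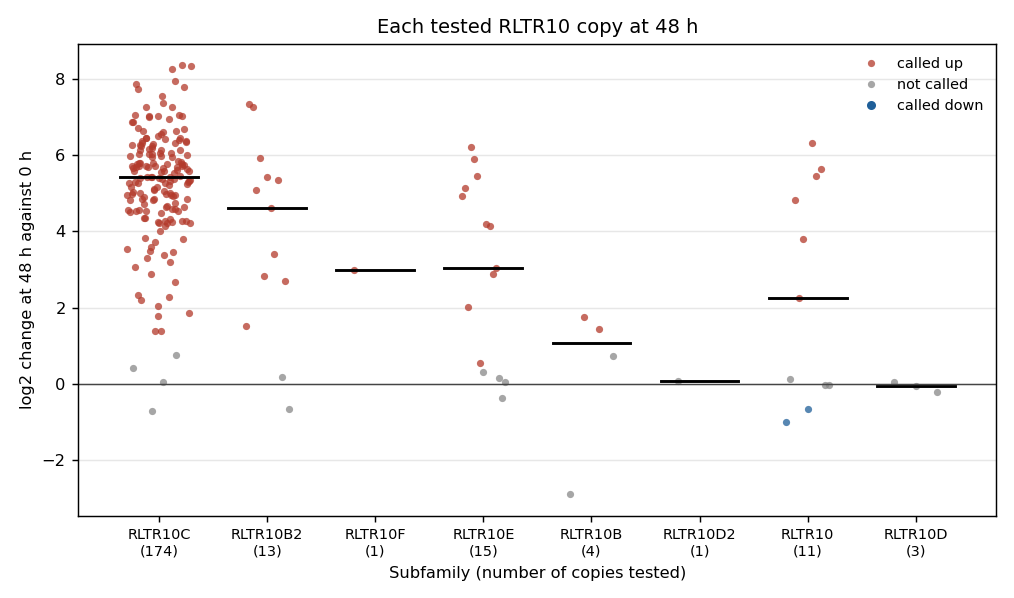
Log2 change at 48 h against 0 h of each of the 222 tested copies, by subfamily, coloured by call, with a bar at the median. The RLTR10C copies centre on 5.42, the RLTR10D copies on -0.06, and the 2 copies called down are both RLTR10. Most of the 222 met the minimum for a test only through their later signal.

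The largest rises were in RLTR10C copies, and all 6 of the largest lay beside MMERVK10C-int. RLTR10C_dup1729 (chromosome 19, 8249918-8250480, + strand, 563 bases, after the internal copy) had 0.813, 1.66 and 0 scaled reads in 0 h libraries, 8.78, 9.54 and 11.6 in 3 h libraries, 113, 129 and 133 in 12 h libraries, 335, 494 and 333 in 24 h libraries and 523, 593 and 546 in 48 h libraries. It was above all 0 h libraries from 3 h on, with a log2 change of 8.36 at 48 h (SE 0.28; limma adjusted p 9.15e-12). Its 0 h value rests on 3 reads, and the ratio of 48 h to 0 h was 664 with an exact 95% counting interval of 227 to 3222. The internal copy beside it had 350 ± 27.9 scaled reads at 48 h, against 0.555 ± 0.960 at 0 h.

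RLTR10C_dup826 (chromosome 8, 30164511-30165073, + strand, also 563 bases) had 0 reads in all 3 libraries at 0 h, then 8.10, 5.73 and 4.65 scaled reads in 3 h libraries, 47.3, 51.9 and 76.3 in 12 h libraries, 168, 206 and 114 in 24 h libraries and 295, 349 and 326 in 48 h libraries. With the 0 h group set to a floor of 3 reads in all, it was at least 387-fold higher at 48 h (log2 change 8.34, limma adjusted p 4.51e-12). Fitted changes of copies with so few reads at 0 h depend on the pseudocount and the tool, and here ran from 6.03 to 11.7. It was also among the 3 copies with the smallest adjusted p at 3 h (2.08e-05, limma).

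RLTR10C_dup837 (chromosome 8, 47472306-47472737, + strand) reached the highest level of any RLTR10 copy, 889, 1092 and 1104 scaled reads at 48 h, against 6.50, 0 and 10.3 at 0 h (log2 change 7.87, SE 0.62; limma adjusted p 5.31e-08). Its internal neighbour MMERVK10C-int_dup1571, of 5084 bases, had 24680 ± 1641 scaled reads at 48 h, against 367 ± 75.7 at 0 h. RLTR10C_dup1236 (chromosome 12, 20869945-20870441) had 18.9, 21.6 and 0 scaled reads in 3 h libraries, so that 1 library had no read, and 684, 689 and 674 in 48 h libraries, against 0, 4.99 and 0.857 in 0 h libraries. RLTR10C_dup514 (chromosome 5, 15688555-15689051) had 576 ± 57.5 scaled reads at 48 h, against 1.69 ± 1.46 at 0 h. It lies in Speer4cos on the opposite strand. RLTR10C_dup811 (chromosome 8, 4681079-4681510) had 222 ± 31.1 at 48 h and no read at 0 h, at least 266-fold higher against the same floor. At 48 h the internal copies beside RLTR10C_dup811 and RLTR10C_dup826 had 312 ± 11.2 and 231 ± 32.7 scaled reads. Those beside RLTR10C_dup1236 and RLTR10C_dup514 had 36.1 ± 13.1 and 13.8 ± 10.5, well below the LTRs beside them.

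RLTR10C_dup1327 (chromosome 13, 24768409-24768898, - strand) showed the early rise from a measurable baseline. It had 20.3, 17.5 and 17.1 scaled reads in 0 h libraries, 66.2, 54.7 and 49.6 in 3 h libraries, 256, 339 and 347 in 12 h libraries, 506, 600 and 437 in 24 h libraries and 593, 600 and 556 in 48 h libraries. The log2 change was 1.58 at 3 h (SE 0.16; limma adjusted p 6.02e-05) and 4.92 at 48 h. The 24 h and 48 h libraries overlapped. The 3 h call was lost when only the 3 h and 0 h libraries were fitted (limma adjusted p 0.0502, the highest of a range from 2.82e-13).

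RLTR10C_dup1620 (chromosome 17, 28891071-28891499), the RLTR10C copy with the highest signal at 0 h, changed less. It had 54.5, 66.5 and 66.9 scaled reads in 0 h libraries, 81.7, 71.3 and 62.04 in 3 h libraries, 146, 194 and 186 in 12 h libraries, 203, 253 and 171 in 24 h libraries and 233, 249 and 202 in 48 h libraries (log2 change 1.85, SE 0.18, limma adjusted p 4.75e-07). No internal copy lies within 500 bp of it. The nearest on its strand, an MMERVK10C-int copy 797 bases away, had 251 ± 37.3 scaled reads at 48 h, against 70.4 ± 9.20 at 0 h. RLTR10B_dup427 lies on the same strand within 2 kb of RLTR10C_dup1620 (28893097-28893431). It had 162, 157 and 155 scaled reads at 48 h, against 39.0, 54.9 and 45.4 at 0 h, a change of 1.76 (SE 0.18, limma adjusted p 1.06e-06). Compared after their values were seen, RLTR10C_dup1620 and RLTR10B_dup427 changed by 1.47 each at 12 h, and by 1.71 and 1.68 at 24 h.

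Copies of the other subfamilies with the smallest adjusted p at 48 h differed widely in their change. RLTR10_dup2909, on the unplaced sequence Un_GL456366, had 168, 174 and 164 scaled reads at 48 h, against 0, 2.495 and 1.71 at 0 h (log2 change 6.32, SE 0.37). It held 18.1% of all RLTR10 subfamily signal at 48 h. RLTR10B2_dup27 (chromosome 1, 58706575-58706942, after an IAPEY3-int copy) had 56.1, 68.2 and 56.5 at 48 h and no read at 0 h, at least 72.2-fold higher against that floor. RLTR10E_dup159 (chromosome 12, 24141470-24141771, before an MMERVK10C-int copy) had 46.5, 37.2 and 46.6 at 48 h and no read at 0 or 3 h, at least 52.2-fold higher against that floor. RLTR10F_dup74 (chromosome 2, 163461284-163461595), with no internal copy near it, had 25.1, 26.3 and 28.3 at 48 h, against 2.44, 2.495 and 2.57 at 0 h, a change of 2.98 (SE 0.29). RLTR10D_dup314 (chromosome 12, 20000001-20000278) had 30.3, 27.9 and 29.0 scaled reads at 48 h, against 30.1, 28.3 and 32.6 at 0 h, and RLTR10D2_dup93 (chromosome 8, 128737645-128737769) had 14.8, 14.7 and 19.9, against 21.9, 16.6 and 10.3. In both the groups overlapped and no change was called.

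Both copies called down at 48 h were RLTR10 copies inside a gene on the gene's own strand, where a read of the gene's transcript and of the LTR cannot be told apart. RLTR10_dup1135 (chromosome 7, 78898962-78899421) lies in Aen, a nuclease gene. It had 30.3, 50.4 and 38.2 scaled reads at 48 h, against 87.0, 87.3 and 66.0 at 0 h (log2 change -1.02, SE 0.31, limma adjusted p 0.0167). Aen itself had 1167 ± 68.6 scaled reads at 48 h, against 1636 ± 110 at 0 h, a change of -0.49. RLTR10_dup1136 (78901372-78901831), the LTR at the other end of the same internal copy, had 62.8, 68.2 and 59.6 at 48 h, against 57.7, 42.4 and 81.4 at 0 h, and was not called (0.12, limma adjusted p 0.754). RLTR10_dup2071 (chromosome 12, 36101734-36102169) lies in Bzw2 and had 33.2, 26.3 and 18.3 at 48 h, against 35.8, 49.1 and 38.6 at 0 h, a change of -0.67 (SE 0.24; limma adjusted p 0.0358). Bzw2 had 2322 ± 52.6 scaled reads at 48 h, against 3342 ± 212 at 0 h, a change of -0.52.

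Neither fall was stable. After rescaling over genes both lost their call (-0.66 and -0.32; limma adjusted p 0.0599 and 0.251). The call of RLTR10_dup1135 failed also without 0 h replicate 1 or 2 (0.0542 and 0.0563) or without 48 h replicate 1 (0.076), and its adjusted p ran from 0.00546 to 0.076 over the alternatives. That of RLTR10_dup2071 was lost without 0 h replicate 2 or 3 (0.142 and 0.061) and 48 h replicate 2 or 3 (0.0623 and 0.17), with a range of 0.0135 to 0.272.

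Copies often lie in units that the authors list as non-coding, whose starts all fall on a grid of 200 bases. A unit on the same strand overlapped 599 of 1039 RLTR10C copies, 113 of 334 RLTR10B2 copies, 51 of 108 RLTR10B copies and 50 of 525 RLTR10 copies. Its start lay inside the copy in 245 RLTR10C copies, 46 RLTR10B2 copies and 12 RLTR10 copies. How these units were defined is not stated by any source used here, and reads of such a copy may be counted in the unit as well.

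Genes with a start near an RLTR10 copy were few. A start lay within 5 kb of a copy for 114 genes, of which 84 were tested. Like a copy, a gene could meet the minimum mean of 10 through its later signal. No count of genes with the minimum at 0 h alone is at hand. At 48 h 14 of them were called up, where 7.65% of all 15261 tested genes were, and 38 down, where 58.4% were. At 12 h 34 were up (12.9% of all genes) and 1 down (2.07%), at 24 h 19 up (7.21%) and 6 down (12.2%), and at 3 h 5 up (0.636%) and 2 down (13.5%). After rescaling over genes 34 were up and 17 down at 48 h, where 29.9% of all genes were up and 29.0% down. Their median log2 change at 48 h was -0.28, beside -0.37 for all genes. Within 1 kb there were 10 tested genes, of which 5 were up and 2 down at 48 h. No test of these shares was made.

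The genes that rose most were Cd209c, Slc22a13, Golt1a, Olfr1372-ps1 and Speer4cos. Each had a mean under 10 scaled reads at 0 h, so it met the minimum for a test only through its later signal and had to differ. Cd209c, a C-type lectin gene on chromosome 8 (3940222-3946863, - strand), had 3.25, 3.33 and 1.71 scaled reads in 0 h libraries, 10.8, 7.64 and 10.1 in 3 h libraries, 63.4, 106 and 91.3 in 12 h libraries, 329, 396 and 303 in 24 h libraries and 737, 806 and 776 in 48 h libraries. It rose at every time, by 1.5 at 3 h (SE 0.17; limma adjusted p 1.76e-14) and 7.71 at 48 h. RLTR10C_dup808 lies 533 bases inside its start, on the gene's strand and after an MMERVK10C-int copy, and had a mean of 43.6 scaled reads at 48 h, against 0.857 at 0 h (change 4.85, limma adjusted p 0.000183). Reads of this LTR, and of the internal copy that abuts it, may be counted in Cd209c as well, and cannot be told apart there.

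Slc22a13, an organic anion transporter gene on chromosome 9 (119192978-119209105, - strand), had 401, 453 and 466 scaled reads at 48 h, against 5.69, 5.82 and 3.43 at 0 h (log2 change 6.23, SE 0.18, limma adjusted p 7.83e-250). RLTR10E_dup111 lies 476 bases upstream of its start on the same strand, beside an IAPEY5_I-int copy, and had 42.0 scaled reads at 48 h, against 0.271 at 0 h (change 5.13, limma adjusted p 1.04e-07). Golt1a, a Golgi transport gene, had 73.1, 66.6 and 74.9 at 48 h, against 0.813, 0 and 0.857 at 0 h. On 2 reads at 0 h its ratio was 129, with an exact 95% counting interval of 35.3 to 1069. The LTR 3485 bases upstream of it, RLTR10C_dup87, lies on the opposite strand and had 1.29 scaled reads at 48 h.

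Olfr1372-ps1, an olfactory receptor pseudogene with RLTR10C_dup1170 at 252 bases inside its start, had 144 ± 20.6 scaled reads at 48 h, against 5.78 ± 3.53 at 0 h (change 4.59, SE 0.20). That LTR lies on the gene's strand and abuts an MMERVK10C-int copy, so reads of both may likewise be counted in the gene. Speer4cos had 63.6 ± 9.79 at 48 h, against 3.88 ± 1.71 at 0 h (change 3.77, SE 0.32). RLTR10C_dup513 lies inside it on the opposite strand and had 551 scaled reads at 48 h, against 3.58 at 0 h. Whether the protocol's counts use strand is not stated by any source used here, so reads of overlapping units on opposite strands may be mixed. The genes that fell most were Ticam2, a Toll-like receptor adaptor gene (42.6 ± 9.71 at 48 h, against 122 ± 17.4 at 0 h, change -1.51), D17H6S56E-5 (87.1 ± 6.43, against 176 ± 12.9, change -1.004) and Rpl10l, a retrocopy of a ribosomal protein gene (47.1 ± 5.60, against 92.6 ± 25.4, change -0.93). Their LTRs lie 2606 to 4311 bases away and had at most 10.1 scaled reads at 48 h.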

How the data were processed

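The RLTR10 members, gene lists and tests were chosen with earlier results of these data known. The submitters' processing notes name STAR 2.5.2a, DESeq2, deepTools and the build mm10 (GRCm38). No source used here gives the counter, its strand setting, its placing of reads with several positions or the repeat annotation. The authors deposited signal: values scaled by a size factor for each library, without division by length. In each library 99.9974% to 99.9991% of nonzero values came out as whole reads (tolerance 0.05) when divided by the library's smallest step. The authors' deposited table of averages and up or down calls is given only where named; its averages matched means recomputed here within 1% for 100% of nonzero units. Whether the size factors rest on the 1 µg of yeast RNA added to 110 µg of total RNA is not shown by the file.

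The main test was limma 3.58.1 (R 4.3.3, intensity trend, two-sided) of log2(value + 1), fitted to the 15 libraries together, 3 per time, since the plan's count test needs raw counts. Fold changes are on that scale, which understates changes of low units. For families and genes the trend set the spread almost wholly from units of similar level. Without the trend the limma adjusted p of RLTR10 at 48 h was 4.89e-05, in place of 6.00e-15. Families (sums over 1 repeat name), copies and genes with a mean of at least 10 were fitted as 3 classes, with Benjamini-Hochberg adjustment within each over all its units; the difference fit subtracted RLTR10C within a library. Alternatives were pseudocounts of 0.5 and 5, other minimums, rescaling by the median ratio over genes, only the times compared, no trend, a replicate block, each library left out, sums without the highest copy, other distances, and edgeR 4.0.16 and DESeq2 1.42.0 on recovered reads. edgeR with the deposited scaling, and sums without the highest copies of a length class or of a set by internal neighbour, were added after seeing the data. Tested on simulated reads for 48 h against 0 h, the copy test (13519 copies) found 42% of 2-fold and 100% of 4-fold rises, 40% of falls to 0.5 and 88% of falls to 0.25, with 6 unchanged copies called. The family test (774 families) found 98%, 100%, 96% and 100%, with 4 unchanged families called. Each simulated unit started from its mean over all libraries, with a common spread. Most tested RLTR10 copies had less signal at 0 h than that mean, so these rates do not describe them. Of 20541 genes, 96.0% matched GENCODE M21 by symbol.

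Named copies were the 6 with the largest called rise at 48 h, up to 3 falls, the 3 whose adjusted p was smallest at 3 h, the 3 of highest 0 h signal and, per other subfamily, the copy whose adjusted p was smallest at 48 h, all with no overlap of libraries where called up or down at 48 h. Named genes were the 5 largest rises and 3 largest falls with a start within 5 kb of a copy. Intervals and floors cover counting error only.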

Additional observations from a re-analysis of the deposited data

How the results depend on the processing

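Of 144 results, each under 1 to 19 alternative settings, most kept direction and call. Subfamily changes at 3 h changed sign under rescaling over genes, edgeR with TMM and DESeq2 for RLTR10 (0.073, 0.085 and 0.084), RLTR10A (0.15, 0.15 and 0.15), RLTR10D (0.16, 0.17 and 0.17) and RLTR10E (0.19, 0.20 and 0.20). Without single libraries the 3 h change of RLTR10A ran from -0.22 to 0.034, that of RLTR10B from -0.089 to 0.24 and that of RLTR10E from -0.13 to 0.0085. From 12 to 24 h RLTR10A was 0.23 after rescaling, 0.092 without its highest copy, 0.11 in edgeR and 0.12 in DESeq2 (-0.15 to 0.12 without single libraries), RLTR10D was 0.028 after rescaling, and RLTR10F was -0.23 without its highest copy. From 24 to 48 h RLTR10D was 0.20 after rescaling and 0.0051 in DESeq2. The rise of RLTR10E from 12 to 24 h missed the threshold without the trend (0.45) and ran from 0.38 to 0.53 without single libraries. Its rise from 24 to 48 h passed after rescaling (0.68), without its highest copy (0.50), in edgeR with TMM (0.47) and in DESeq2 (0.48), and ran from 0.32 to 0.45 without single libraries. RLTR10D2 minus RLTR10C at 3 h was 0.16 without the highest copy. Among single copies, RLTR10_dup1136 ran from -0.11 to 0.35 and RLTR10D2_dup93 from -0.22 to 0.29 without single libraries (-0.015 in edgeR with TMM), and RLTR10D_dup314 was 0.30 after rescaling and 0.12 in DESeq2.

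Copies called up at 3 h numbered 23 with a pseudocount of 5, 7 with the minimum at 0 h alone, 1 with only the 2 times compared and 25 in edgeR with the deposited scaling. With the minimum at 0 h alone they numbered 10, 12 and 11 at 12, 24 and 48 h (5.17%, 5.8% and 6.06% of all copies). With a minimum of 30 they numbered 86, 86 and 85, and with none 381 at 24 h and 550 at 48 h (2.47% and 4.05%). No share of all copies is at hand for the minimum of 30, the pseudocount of 5, only the 2 times compared or edgeR. Calls down were 1 at 12 h with a minimum of 30, after rescaling, in edgeR with TMM and in DESeq2. At 24 h they were 1 after rescaling and in DESeq2 and 2 in edgeR with TMM, and at 48 h 4 with no minimum, 0 after rescaling, and 1 with only the 2 times compared and in DESeq2. After rescaling 3.93%, 5.74% and 5.24% of all copies were called down at 12, 24 and 48 h. Without single libraries calls down ran from 0 to 1 at 3 and 12 h, 0 to 2 at 24 h and stood at 1 at 48 h. After rescaling 34 genes near copies were up and 17 down at 48 h (29.9% and 29.0% of all genes). They were 9 up with a minimum of 30, 34 up and 16 down in edgeR with TMM, and 29 and 16 in DESeq2. No share of all genes is at hand for those settings. Of 447 tested genes within 20 kb, 50 were up (11.2%) and 221 down (49.4%) at 48 h. Of 10 tested within 1 kb, 5 were up and 2 down. Among all genes 7.65% were up and 58.4% down. The causes were not tested.

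Replicate numbers did not pair the libraries: correlations of family deviations with the same number at 0 h ran from -0.10 to 0.13. With the replicate block 1 copy was called down at 24 h, and the other 137 results fitted with it were the same. Depth limits single copies. Simulated 2-fold rises were found in 42% of copies. Those began at their mean over all libraries, which for most tested RLTR10 copies lay above their 0 h level, so the rate does not describe them.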
